A study of Sus scrofa with 9 samples.

Results

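The enzymes described here are the xenobiotic-metabolizing enzymes of pig skeletal muscle: the cytochromes P450, the epoxide hydrolases, the glutathione S-transferases, the sulfotransferases, the flavin monooxygenases, the aldehyde dehydrogenases and the aldo-keto reductases, with the quinone reductase NQO1 and the P450 reductase POR. Members were defined by gene symbol. A probe belonged if its RefSeq accession mapped to a symbol starting with CYP or FMO and a digit, or with EPHX, GST, MGST, UGT, SULT, ALDH or AKR, or to NQO1 or POR. The sterol demethylase CYP51, also called CYP51A1, was left out with its 3 probes. This gave 121 probes of 47 genes, out of 43581 probes and 3194 named genes. None of these probes carried a UGT symbol, so the conjugating enzymes are represented by transferases of glutathione and sulfate.

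The tissue was the longissimus dorsi, a back muscle, of Bama minipigs, a small Chinese breed. One group of 6 animals (HFHSD) received a high-fat high-sucrose feed of 53% basal diet, 37% sucrose and 10% lard, and the control group (CD) of 3 animals received standard pig chow. Feeding began at an age of 6 months and lasted 23 months in both groups. All animals were gonadally intact, penned singly and fed in restricted amounts, and both sexes were used without a sex being given for each animal. The sources differ on the size of the CD group, with 3 animals in the series design and 6 in the growth protocol; 3 CD arrays were analysed, 1 array per animal.

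Xenobiotic metabolism is usually described in steps. Cytochromes P450 and flavin monooxygenases oxidise foreign and endogenous lipophilic compounds with electrons that POR passes from NADPH, and epoxide hydrolases open the reactive epoxides that can result. Transferases then add glutathione, sulfate or glucuronic acid, while aldehyde dehydrogenases, aldo-keto reductases and NQO1 clear aldehydes, ketones and quinones. The liver is the main site of many of these enzymes. Muscle is known to hold some of them, including ALDH2, the mitochondrial enzyme that oxidises acetaldehyde and lipid aldehydes.

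Each level below is the log2 of a probe's signal minus the 75th percentile of its array, so that 0 is the 75th percentile, and each difference is HFHSD minus CD on that log2 scale, with its standard error (SE) from limma and a p that was adjusted (Benjamini-Hochberg) across the 27922 probes tested. A probe was tested if it was well above background on at least 3 of the 9 arrays, by the scanner software's own call, and passed if its adjusted p was under 0.05. A gene is represented by its tested probe with the highest mean level. Levels of different probes are not compared, since probes differ in brightness. The tissue was bulk muscle, in which fewer cells of a type and less RNA per cell cannot be told apart.

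The arrays differed in ways that touch these genes. On 8 arrays 51.2% to 68.9% of the probes were well above background, whereas on CD 1 it was 36.8%, and slide 1, with HFHSD 5 and HFHSD 6, was scanned on another day than slides 2 and 3. All 12 tested muscle fibre markers gave high levels in both groups, with array means of 9.76 to 10.11 in CD and 9.38 to 9.80 in HFHSD. Adipocyte markers were higher in HFHSD for 12 of 12 tested genes. Of these, PLIN1 was above background on 0 of 3 CD and 5 of 6 HFHSD arrays, so it was tested only through HFHSD and supports no direction. The array mean of the adipocyte list, PLIN1 included, ran from -0.65 to -0.37 in CD and from 0.06 to 1.01 in HFHSD without overlap. CIDEA, SCD and TUSC5 had a passing probe, and no marker of the list was below background throughout. Of the other lists, hepatocyte markers were higher for 9 of 9 and macrophage markers lower for 8 of 8 tested genes, with no passing probe. The hepatocyte marker AMBP, above background on 0 of 3 CD and 3 of 6 HFHSD arrays, likewise supports no direction. The part of these cell types in the differences below was not tested.

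Among the 39 tested members, EPHX1 was the one gene whose representative probe passed, and it was lower on the high-fat high-sucrose diet. That is 2.56% of the tested members, against 0.995% of all 2613 tested named genes. By probe, 4 of 89 tested member probes passed (4.49%), against 1.23% of all tested probes: both probes of EPHX1 were lower, and 1 probe each of AKR1CL1 and CYP2A19 was higher, where 0.537% of all probes passed as lower and 0.695% as higher. The probes of EPHX1 share a target, and the CYP2A19 probe was above background in HFHSD alone, so the share of probes is given as a description and supports nothing. An unadjusted p under 0.05 was reached by 11 members, or 28.2%, against 18.4% of named genes, and the diet groups did not overlap for 5 members, or 12.8%, against 13.1%. The count without overlap is thus near that of genes in general.

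**Figure D1:**
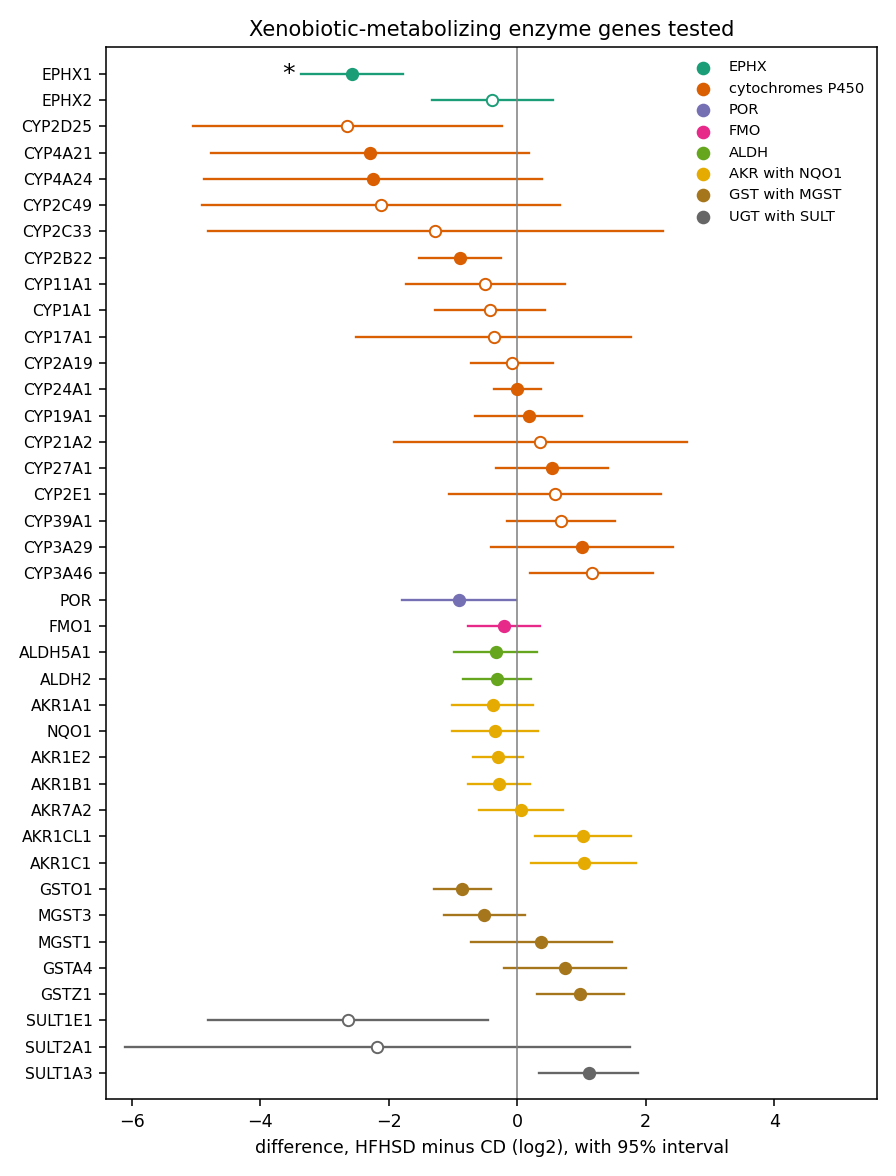
Difference between diets for the 39 tested enzyme genes, HFHSD (6 animals) minus CD (3 animals), as the log2 value of each gene's brightest tested probe with its 95% interval from the limma fit; colours mark families, open circles genes that were not well above background on all 9 arrays, and the asterisk an adjusted p under 0.05. EPHX1, at -2.57, carries the asterisk, and SULT2A1, for which CD 1 stood apart, has an interval of -6.11 to 1.75.

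Of the 39 tested members, 24 were lower and 15 higher in HFHSD, with a median difference of -0.31. Over all named genes 57.6% were lower and the median was -0.085. Without CD 1 the members split into 22 lower and 17 higher with a median of -0.085, beside a median of -0.042 for all named genes. The other 8 members had no probe above background on 3 arrays and were not tested: CYP1A2, CYP2C42, CYP7A1, CYP8B1, CYP19A2, CYP19A3, CYP27B1 and GSTA1. CYP7A1, CYP8B1 and CYP27B1 are enzymes of bile acid and vitamin D synthesis in liver and kidney. Well above background on all 9 arrays were 25 members, of which 14 were lower and 11 higher, with a median of -0.28.

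EPHX1 encodes microsomal epoxide hydrolase, a membrane enzyme of the endoplasmic reticulum that converts epoxides of drugs and aromatic compounds to less reactive diols. Its brighter probe was at 1.72 in CD 1, 1.05 in CD 2 and 2.28 in CD 3, and in the HFHSD animals it ran from -1.58 through a median of -0.86 to -0.19. Every HFHSD animal lay below every CD animal, with a gap of 1.24 between the groups. The CD level was 1.68 ± 0.62 (SD, n = 3). The HFHSD level was -0.89 ± 0.51 (SD, n = 6), so that EPHX1 fell by 2.57 on the log2 scale (SE 0.36, 95% interval -3.37 to -1.78, adjusted p = 0.0161). On a linear scale CD was 5.94 times HFHSD, with an interval of 3.43 to 10.3. With normexp background correction the log2 difference was smaller, at -1.72 with percentile scaling (adjusted p = 0.0204) and -1.81 with quantile normalisation (adjusted p = 0.00523).

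The second EPHX1 probe did not overlap between the diets either. It was at -0.88, -1.29 and 0.073 in CD 1 to CD 3 and between -3.89 and -2.39 in HFHSD, with a difference of -2.32 (SE 0.39, adjusted p = 0.0307), and was well above background on 3 of 3 CD and 5 of 6 HFHSD arrays. This probe passed in 8 of 20 alternatives: a fixed slide block gave -2.12 and missed the threshold (adjusted p = 0.0929), as did percentile scaling after normexp at -1.16 (adjusted p = 0.0818), and quantile normalisation after normexp gave -0.92. CD 1, which stood apart for other members, lay between the other CD animals for both probes. Within slide 2, where CD 1 was the only CD animal, the brighter probe differed by -2.86. Within slide 3, where HFHSD 2 was the only HFHSD animal, the brighter probe differed by -1.86. The direction was the same within both slides that held both diets. With slide as a fixed block the difference was -2.39 and no longer passed (adjusted p = 0.0778). It also missed the threshold without CD 1 (-2.55, adjusted p = 0.0733), without CD 3 (-2.27, adjusted p = 0.105) and without slide 1 (-2.58, adjusted p = 0.0578).

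**Figure D2:**
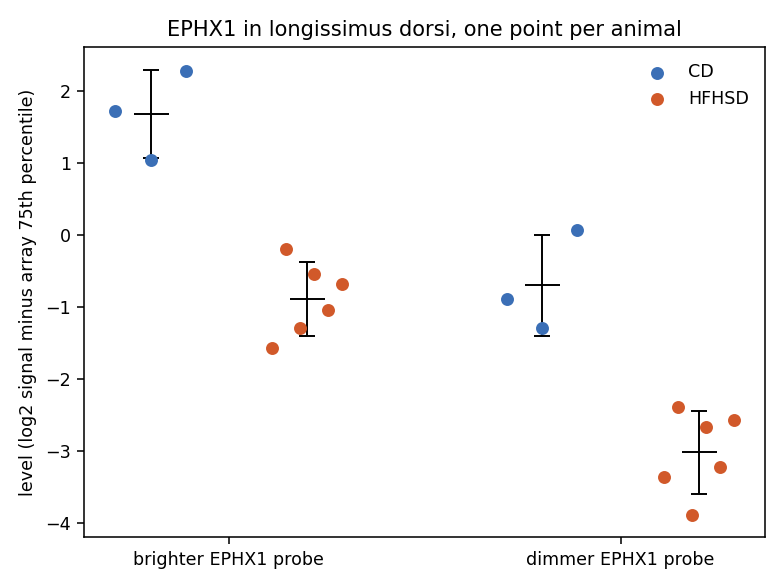
Level of both EPHX1 probes in each animal (log2 signal minus the array's 75th percentile), CD in blue (n = 3) and HFHSD in orange (n = 6), with the group mean and SD as black bars. The HFHSD animals lie below the lowest CD animal for both probes, by 1.24 for the brighter one and 1.09 for the dimmer one.

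EPHX2, the soluble epoxide hydrolase of fatty acid epoxides, did not pass. Its brightest probe was at -2.71, -2.86 and -1.97 in CD and from -3.69 to -1.62 in HFHSD, with a median of -3.02 there. The groups overlapped, and the difference of -0.39 (SE 0.42, 95% interval -1.33 to 0.56, adjusted p = 0.731) became 0.18 once slide entered as a fixed block. CD 1 was not above background for this gene.

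POR supplies electrons to the microsomal P450s. Its brightest probe was at 2.35, 1.76 and 2.46 in CD and ran from 0.53 through a median of 1.33 to 2.36 in HFHSD. Apart from HFHSD 4, at 2.36, the HFHSD animals lay below all CD animals. The difference was -0.91 (SE 0.40, adjusted p = 0.290), and was -0.65 and 0.060 by its other probes. All members of the list of electron donors and haem supply that could be tested, 9 of 20, also missed the threshold, with 6 lower and 3 higher and a median of -0.32. Among these the haem oxygenase HMOX1 differed by -0.99 (adjusted p = 0.102).

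Of 25 cytochromes P450, 18 were tested, 8 higher and 10 lower, with a median of -0.23, and 0 passed by their brightest probe in the limma fit, though 3 had an unadjusted p under 0.05. CYP2B22, a pig member of the drug-metabolizing CYP2B family, was at 0.93, 0.93 and 0.60 in CD and from -0.73 to 0.52 in HFHSD, with a median of -0.051. Its groups did not overlap, both its probes were lower, and the brighter differed by -0.89 (SE 0.28, adjusted p = 0.150). The difference was -0.996 within slide 2 and -0.44 within slide 3.

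In the CYP3A family, whose enzymes oxidise many drugs and steroids, both tested genes were higher in HFHSD without passing. CYP3A46 was at -2.90, -4.69 and -2.90 in CD and between -2.85 and -1.64 in HFHSD. The difference was 1.16 (SE 0.43, adjusted p = 0.211) and turned to -0.098 with normexp background correction and percentile scaling. It was well above background on 1 of 3 CD arrays, so its CD mean holds values at or near the background. CYP3A29 was -0.95, -0.94 and -1.13 in CD, a spread of 0.11 (SD, n = 3), whereas HFHSD ran from -1.59 to 1.80 with an SD of 1.22. The highest HFHSD animals were HFHSD 2 at 1.80 and HFHSD 6 at 0.95, and the difference was 1.01 (SE 0.63, adjusted p = 0.485). It was 0.021 within slide 2 and 2.84 within slide 3, where HFHSD 2 was the only HFHSD animal. CYP3A29 and CYP3A46 are close copies, and a probe may take up RNA of both.

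CYP2A19, a pig CYP2A enzyme, gave different answers by probe. The brightest probe, at -2.36, -1.76 and -2.34 in CD and from -2.60 to -1.59 in HFHSD, differed by -0.087 (adjusted p = 0.924). Another probe reached the background call on 0 of 3 CD arrays, at -3.89, -5.24 and -4.88, and was above it on 6 of 6 HFHSD arrays, from -3.27 to -2.37, so that it entered the test only through HFHSD and has only a bound in CD. Set against the lowest signal called above background on each CD array, averaged over these arrays, that probe was 1.75-fold higher in HFHSD (adjusted p of the limma fit 0.0313). On CD 1 that lowest signal was -2.03, above every HFHSD value, so a CD 1 level equal to HFHSD would not have been called. The fold and the p are given as a description and support no difference. The log2 difference of that probe turned to -0.013 with normexp background correction and percentile scaling, and the remaining tested probes differed by 0.092 and 0.73 without passing. CYP24A1, which inactivates vitamin D, did not pass by either probe, with differences of 0.0019 (95% interval -0.36 to 0.36) and -0.12. Also without passing, CYP27A1, a sterol hydroxylase, differed by 0.54, the oxysterol hydroxylase CYP39A1 by 0.68, CYP2E1, which oxidises ethanol, by 0.59 and CYP1A1, induced by aryl hydrocarbons, by -0.42. CYP1A1 was above background on 1 of 3 CD and 3 of 6 HFHSD arrays, and CYP2E1 and CYP39A1 on 2 of 3 CD arrays. CYP19A1, the aromatase, differed by 0.18 (adjusted p = 0.873), with HFHSD 5 and HFHSD 6 of slide 1 at 3.49 and 3.30 and the other animals at 2.0 to 2.84.

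By the brightest tested probe, CD 1 stood far above the other 8 animals for 6 members, a pattern that was picked out after the values were seen. CYP4A24, a fatty acid hydroxylase of pig kidney and liver, was 5.89 in CD 1 against -0.28 and 0.026 in CD 2 and CD 3 and -1.10 to 0.59 in HFHSD. The dimmer CYP4A24 probe did not show this. It was at -1.88 in CD 1, not above background there, and reached -1.63 in another animal. CYP4A21, a bile acid hydroxylase, was 6.18 in CD 1 and 0.60, 0.88 and -0.73 to 1.51 elsewhere. SULT2A1, which sulfates steroids and bile acids, was 5.12 in CD 1 and at most -1.83 in any other animal, 124 times that animal's signal. For CYP2C33, CYP2C49 and CYP2D25, enzymes of drugs and, in the last case, vitamin D, the signal of CD 1 was 47.0, 39.2 and 33.8 times that of the next animal. CYP4A21 and CYP4A24, and likewise the CYP2C genes, are close copies, so these probes may partly read the same RNA.

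These 6 were among 10 named genes, of 2613, for which CD 1 was at least 3 log2 units above every other animal. No other animal had more than 1 such gene, and none of those was a member. The other 4 genes of CD 1 were PCK1, an enzyme of gluconeogenesis in liver and kidney, FXYD2, a sodium pump subunit known from kidney, the bile acid carrier FABP6 and the aminotransferase AGXT2. In a list of 28 kidney markers that was added after this pattern was seen, 13 had a probe. SLC34A1, the phosphate carrier of the proximal tubule, was at 0.55 in CD 1 and at most -2.01 elsewhere, PCK1 at 5.02 against at most 0.36, FBP1 at 2.80 against at most 0.26, and AQP1 led by 0.092. The other 6 of 10 tested kidney markers, AQP2, AQP3, SLC22A2, SLC22A6, MIOX and GATM, were not highest in CD 1. The untested SLC12A1 and SLC22A8 were below background on all arrays, and the untested CALB1 was above it on 2 arrays, not CD 1. SLC12A1, SLC22A8 and CALB1 led in CD 1 by 1.46, 1.55 and 1.88, at levels not called above background. Of 9 tested hepatocyte markers 0 were highest in CD 1. APOA1, APOA2 and HP were above background there, at 0.86, 1.35 and 0.83, and the other 6, with ALB at -3.74, were not. The part of RNA from another tissue in CD 1 was not tested.

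**Figure D3:**
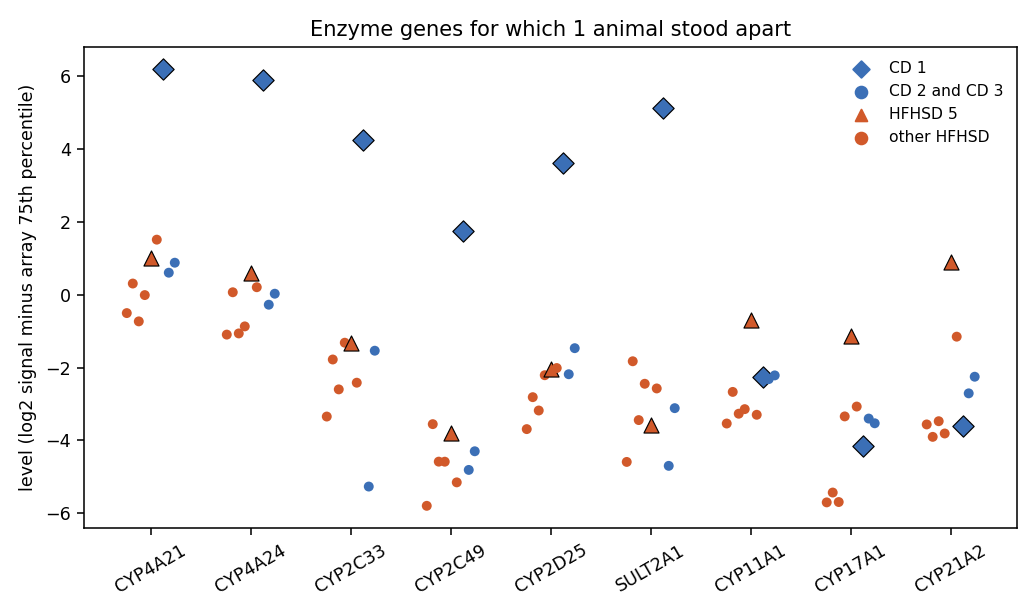
Level of 9 enzyme genes in each animal (log2 signal minus the array's 75th percentile), CD in blue and HFHSD in orange, with CD 1 as diamonds and HFHSD 5 as triangles. CD 1 lies far above the other animals for CYP4A21, CYP4A24, CYP2C33, CYP2C49, CYP2D25 and SULT2A1, and HFHSD 5 is the highest animal for CYP11A1, CYP17A1 and CYP21A2.

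The diet differences of these 6 genes depended on CD 1. They ran from -1.27 for CYP2C33 to -2.64 for CYP2D25, with adjusted p from 0.256 to 0.768. Without CD 1, CYP4A21 differed by -0.48, CYP4A24 by -0.24, CYP2C49 by -0.022 and CYP2D25 by -0.83, while CYP2C33 turned to 1.27 and SULT2A1 to 0.83. For the last 2 genes CD 2, at -5.26 and -4.70, lay below its lowest signal called above background, -4.5. CYP2C49 was called on CD 1 alone of the CD arrays and on 2 of 6 HFHSD arrays. These turns thus hold values at or near the background. Within slide 3, which holds HFHSD 2 alone of its diet and not CD 1, the differences of the 6 genes were between -0.99 and 2.08. HNF4A, a nuclear receptor of liver and kidney that drives many of these genes, was at -2.05 in CD 1, -3.58 in CD 2 and -4.38 in CD 3 and from -5.64 to -4.04 in HFHSD, and differed by -1.56 (adjusted p = 0.168). It was above background on 1 of 3 CD and 2 of 6 HFHSD arrays. CD 1 was not among them, since the lowest signal called above background there was -2.03.

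HFHSD 5 was the highest animal for the steroid-making P450s, also noted after the values were seen. CYP11A1, which cuts the side chain of cholesterol in mitochondria, was at -0.68 in HFHSD 5, and at -3.53 to -2.67 in the other HFHSD and -2.32 to -2.21 in the CD animals. A further CYP11A1 probe, above background on HFHSD 5 alone and so not tested, was at 0.85 there and at most -4.35 elsewhere. CYP21A2, an adrenal hydroxylase, was at 0.89 against at most -1.15 elsewhere, and CYP17A1 at -1.14 against at most -3.07. STAR, which carries cholesterol to CYP11A1, was at 2.81 in HFHSD 5 and at most -1.94 elsewhere, HSD3B1 at 1.29 against at most -0.24, and the ferredoxin reductase FDXR at 2.46 against at most 1.19. Of 11 markers of steroid-making cells added after the values were seen, 8 had a probe, LHCGR and INSL3 were not above background in HFHSD 5, and NR5A1, CYB5A and FDX1 were not highest there. The part of RNA from such cells in HFHSD 5 was not tested. The diet differences were -0.50, 0.36 and -0.37 for CYP11A1, CYP21A2 and CYP17A1, and -0.91, -0.32 and -0.95 without HFHSD 5, and none passed (adjusted p at least 0.0932). CYP21A2 was above background on 2 of 3 CD and 2 of 6 HFHSD arrays. CYP17A1 was so on 2 of 3 CD and 3 of 6 HFHSD arrays, so the differences of both hold values at or near the background.

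The glutathione transferases gave both directions, 3 of 5 tested members higher and 2 lower, and 0 passed in the limma fit, with 2 at an unadjusted p under 0.05. GSTO1, the omega-class enzyme that reduces dehydroascorbate, came nearest. Its 1 probe was at 6.03, 5.49 and 5.85 in CD and ran from 4.58 through a median of 4.97 to 5.17 in HFHSD. All HFHSD animals lay below all CD animals, and the difference was -0.85 (SE 0.20, 95% interval -1.30 to -0.41, adjusted p = 0.0686). It was -0.98 within slide 2 and -0.67 within slide 3, and shrank to -0.39 with normexp background correction and percentile scaling (adjusted p = 0.609). GSTO1 passed in 6 of 22 alternatives, with adjusted p from 0.0221 with normexp and quantile normalisation to 0.0488 with the mean of probes, and also with slide as a random block (0.0443), the filter on all arrays (0.0321), the variance trend (0.0354) and array weights (0.0402). With its 1 probe, the mean of probes left the difference at -0.85, as did the filter and the variance trend. Only the tested set or the variance estimate differed in these settings.

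GSTZ1, which isomerises maleylacetoacetate in tyrosine breakdown, went the other way. It was at 3.64, 2.51 and 2.59 in CD and from 3.33 through a median of 3.98 to 4.22 in HFHSD, so that CD 1 fell within the HFHSD range while CD 2 and CD 3 lay below it. The difference was 0.98 (SE 0.30, adjusted p = 0.137), both probes were higher, and within slides 2 and 3 it was 0.23 and 1.65. GSTA4, which conjugates hydroxynonenal from oxidised lipids, differed by 0.75 (SE 0.43, adjusted p = 0.436), with HFHSD 5 and HFHSD 6 at 1.34 and 1.58 and the other 4 HFHSD animals at -0.27 to 0.17. The membrane-bound MGST3 was at 5.35, 5.22 and 5.16 in CD and from 4.15 to 5.33 in HFHSD and differed by -0.51 (adjusted p = 0.418), and MGST1 was higher by all 7 of its probes, from 0.23 to 0.72, with 0.37 (adjusted p = 0.784) by the brightest. Of the list of glutathione supply, 2 of 14 genes were tested and neither passed: GSS, which completes glutathione synthesis, differed by -0.41 (adjusted p = 0.261) with groups that did not overlap, and CTH by -0.69.

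The 3 sulfotransferases did not share a direction, with 1 higher and 2 lower, and none passed (limma, 2 at an unadjusted p under 0.05). SULT1A3, which sulfates phenols and catecholamines, was at 3.11, 3.06 and 2.98 in CD and at 3.00, the value of HFHSD 4, to 4.64 in HFHSD, with a median of 4.32. In 5 of 6 HFHSD animals it was above all CD animals. The difference was 1.11 (SE 0.35, adjusted p = 0.143) by the brighter and 1.09 by the dimmer probe, and 1.34 without HFHSD 4 (adjusted p = 0.0352), the animal that lay lowest. Leaving out the lowest HFHSD animal could only raise the difference. SULT1A3 passed in this 1 of 22 alternatives, with an adjusted p of up to 0.406 in the others. SULT1E1, the estrogen sulfotransferase, was at -2.30, 0.16 and -2.92 in CD and from -6.36 to -1.77 in HFHSD. Its difference of -2.63 (SE 0.98, adjusted p = 0.211) rests on low signals, since it was above background on 2 of 3 CD and 2 of 6 HFHSD arrays.

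Among the aldo-keto reductases, 3 of 7 tested genes were higher and 4 lower, with 0 passing by the brightest probe in the limma fit and 2 at an unadjusted p under 0.05. AKR1CL1 was higher by all 3 of its probes. The brightest was at 3.98, 3.40 and 2.56 in CD and from 3.85 through a median of 4.30 to 5.02 in HFHSD, where CD 1 overlapped the HFHSD range, and differed by 1.02 (SE 0.33, adjusted p = 0.160). The dimmest was at 0.93, 0.64 and 0.55 in CD and from 1.46 to 2.07 in HFHSD, without overlap, and rose by 1.11 (SE 0.19, adjusted p = 0.0324). That probe differed by 0.76 within slide 2 and 1.38 within slide 3, and with slide as a fixed block its adjusted p was 0.0864. It passed in 9 of 21 alternatives. It missed the threshold without CD 1 (adjusted p = 0.0781), without CD 2 (0.0926) and without CD 3 (0.188), and with normexp and percentile scaling (0.0735).

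AKR1C1, a hydroxysteroid dehydrogenase, had 5 tested probes that disagreed in sign. The brightest was at 0.87, -0.16 and -0.44 in CD and from 0.46 to 1.72 in HFHSD and differed by 1.03 (SE 0.36, adjusted p = 0.189). They carry accessions of 2 transcripts under 1 symbol, and the signs disagreed within each: 1.03, 1.22 and -0.61 for one, -1.15 and 1.06 for the other. No direction is given for AKR1C1 as a gene. The remaining reductases did not pass: the aldehyde reductase AKR1A1 differed by -0.38, the aldose reductase AKR1B1 by -0.28, AKR1E2, which reduces anhydrofructose, by -0.30 without overlap, AKR7A2 by 0.053 and NQO1 by -0.35. AKR1A1 turned to 0.055 and AKR1B1 to 0.066 with normexp background correction and percentile scaling.

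**Figure D4:**
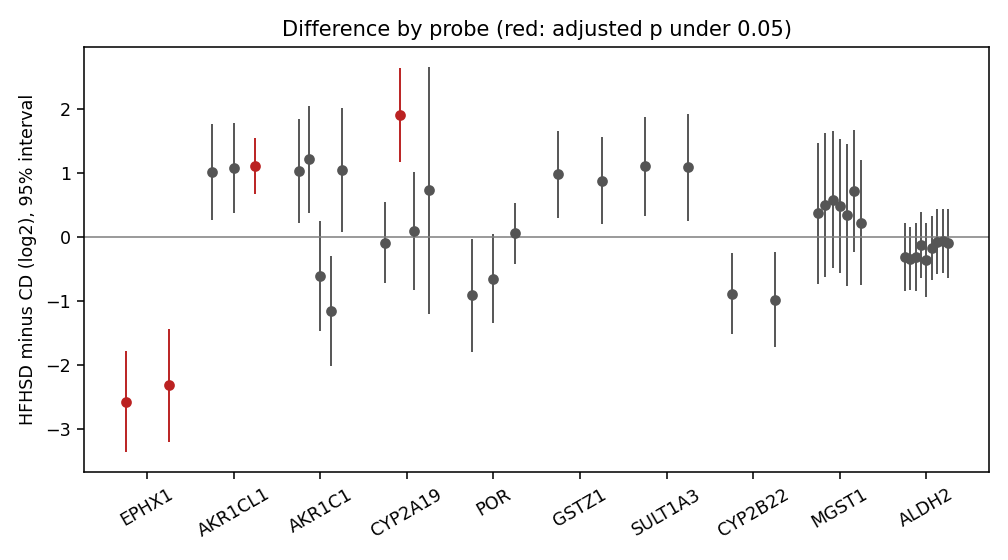
Difference between diets (HFHSD minus CD, log2, 95% interval) for every tested probe of 10 enzyme genes, ordered from bright to dim within a gene, with red for an adjusted p under 0.05. Both EPHX1 probes are red and below 0, all AKR1CL1 probes lie above 0, and the probes of AKR1C1, CYP2A19 and POR fall on both sides of 0.

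The aldehyde dehydrogenases and the flavin monooxygenase did not pass. ALDH2 was at 7.33, 7.2 and 6.84 in CD and from 6.48 through a median of 6.76 to 7.38 in HFHSD, with overlapping groups. All 9 of its probes were lower in HFHSD, from -0.36 to -0.066, and the brightest differed by -0.31 (SE 0.24, 95% interval -0.84 to 0.22, adjusted p = 0.592). That sign turned to 0.19 with normexp background correction and percentile scaling. ALDH5A1, which clears succinic semialdehyde, differed by -0.34 (adjusted p = 0.641), with HFHSD 6 at 0.29 and all other animals at 0.90 to 1.58. FMO1 was at 3.60, 2.90 and 2.99 in CD and from 2.59 to 3.37 in HFHSD and differed by -0.21 (adjusted p = 0.763), a sign that turned to 0.013 without CD 1.

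Genes that regulate or assist these enzymes did not pass either. Of 17 nuclear receptors and regulators, 7 were tested, 6 lower and 1 higher, with a median of -0.41. RXRB, the partner of several xenobiotic receptors, was at 1.98, 1.61 and 1.72 in CD and from 0.038 to 1.5 in HFHSD without overlap, and differed by -0.99 (SE 0.29, adjusted p = 0.119). The pregnane X receptor NR1I2 differed by 0.15 and KEAP1, the sensor that holds back the antioxidant factor NRF2, by -0.41. Of 16 conjugate and drug transporters 3 were tested, all lower, with SLC22A4, a carnitine and ergothioneine carrier, at -0.68 (adjusted p = 0.266) and SLCO2A1 at -0.42. Of 26 other xenobiotic enzymes 8 were tested, 3 higher and 5 lower with a median of -0.11. Among the 3 higher, CES3 and the paraoxonase PON3 were each well above background on 0 of 3 CD and 4 of 6 HFHSD arrays. Both were tested only through HFHSD, so their direction supports nothing, and no difference is given for them.

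**Figure D5:**
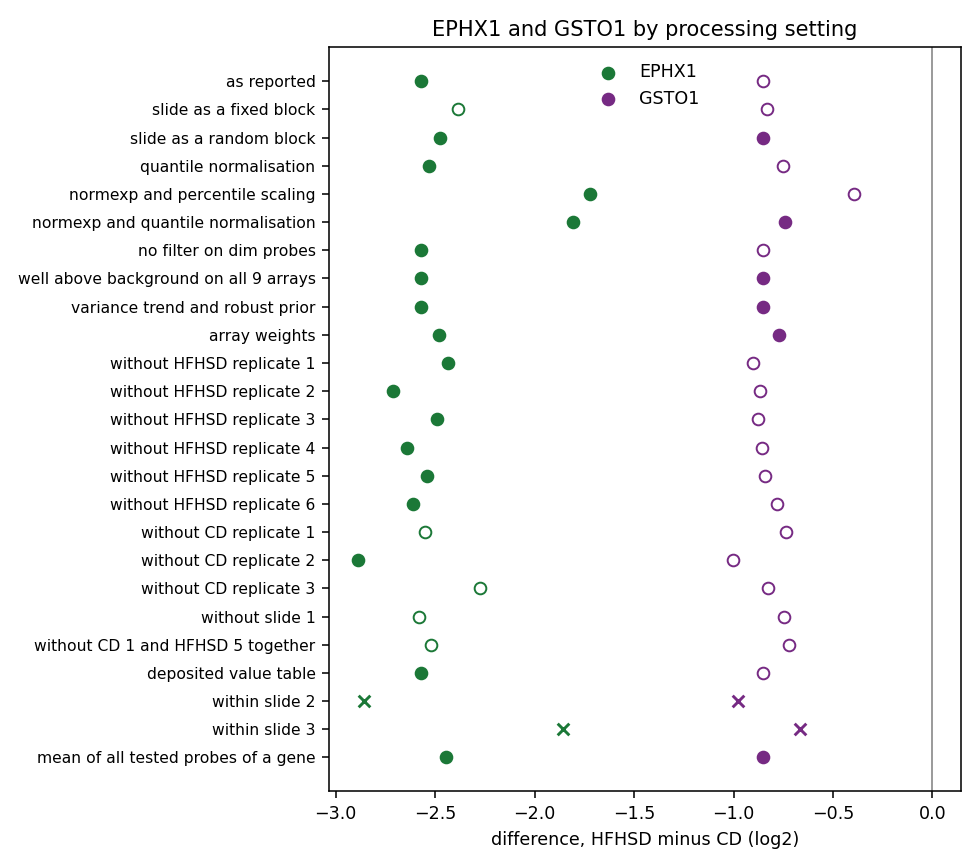
Difference between diets (HFHSD minus CD, log2) for EPHX1 in green and GSTO1 in purple as reported and under each other processing setting. Filled circles have an adjusted p under 0.05, open circles do not, and crosses are differences of means within a slide, with no test; all values lie below 0, from -2.89 to -1.72 for EPHX1 and from -1.0 to -0.39 for GSTO1.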

How the data were processed

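RNA of 9 muscle samples was hybridised with Cy3 to Agilent porcine arrays. The authors' deposited files give an intensity per spot from Agilent Feature Extraction 10.7.3.1, per the file headers; the processed signal is background-subtracted within each array and not scaled between arrays. The deposited series table holds the same intensity values, with 0 spots differing on each array.

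Control and outlier spots were left out, spots of a probe were averaged on the log2 scale, and 22 of 43603 probes without a valid spot on some array were dropped. The 75th percentile of each array was subtracted. Probe accessions, with versions removed, were looked up in a RefSeq table of Sscrofa11.1, used for names only, which named 6884 probes. HFHSD 5 and HFHSD 6 carry an older annotation: 17 probes were named only through it, and 2 probes named differently stayed unnamed. Array files name no genome build, so no coordinates are given, and no sequences were used.

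Diet was tested by limma 3.58.1 under R 4.3.3 (lmFit, eBayes, two-sided, no covariates) over all arrays and 27922 probes, a fit that was tested on simulated data. Each array is 1 animal, and their number limits the precision. Named genes were EPHX1, POR, members with a passing probe and, per family, the 4 with the smallest p and the 3 with the highest mean level, plus up to 2 genes of each pathway list; others are marked or given in lists. Of the list genes under this rule, 3 are left without a value. Members and lists were chosen with earlier results of these data known. Alternatives covered slide, background correction with normexp (offset 50) on the median spot signal, since the files hold no mean signal, scaling, filters, variance models, probe summary and leaving out each array. The deposited series table is also counted as an alternative, though its values are identical and it repeats the reported fit.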

Additional observations from a re-analysis of the deposited data

Results flagged for a closer look

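Among the HFHSD animals CYP11A1 was highest in HFHSD 5, at -0.68, and the nearest of the others was at -2.67, a gap of 0.696 of the group's range. SULT1A3 was lowest in HFHSD 4, at 3.00, with the nearest at 4.04 and a gap of 0.634 of the range. Both gaps exceed Dixon's critical value for 6 animals, which chance passes in about 1 in 20 groups. In all 38 groups were examined and 2 were flagged, which is near the number that chance gives. CYP11A1 was added to these groups after its values were seen, so the chance rate does not hold for its flag.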

How the results depend on the processing

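The count of passing member genes, 1 as reported, was 0 with slide as a fixed block, without slide 1 and without CD 1 and HFHSD 5 together (the last 2 settings were chosen after seeing the data). It was 2 with slide as a random block, with normexp and percentile scaling, with probes well above background on all 9 arrays, with a variance trend and robust prior and with the mean of a gene's probes, 3 with normexp and quantile normalisation and 4 with array weights. Leaving out 1 animal gave 0 to 2. Passing member probes, 4 as reported, were 0 with the fixed block, without slide 1 and without CD 1 and HFHSD 5, 1 with no filter, 7 with normexp and quantile normalisation and 10 with array weights, and 0 to 6 leaving out 1 animal. Over all probes 344 passed as reported, 84 with the fixed and 677 with the random block, 88 with normexp and percentile scaling, 856 with normexp and quantile normalisation, 66 with no filter, 736 above background on all arrays, 612 with the variance trend, 1205 with array weights, 57 without slide 1, 25 without CD 1 and HFHSD 5 and 25 to 325 leaving out 1 animal. Member genes lower in HFHSD numbered 14 with the filter on all arrays, which tests fewer genes, and 22 to 27 leaving out 1 animal. The median difference of the members was -0.34 to -0.085 leaving out 1 animal. It was -0.61 within slide 2, where CD 1 was the only CD animal, with 30 of 39 lower. Within slide 3, where HFHSD 2 was the only HFHSD animal, it was 0.059, with 18 lower. The medians of all named genes were -0.16 within slide 2 and -0.047 within slide 3.

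EPHX1 was lower under all 24 other settings and passed in 17 of the 22 with a test. Both counts include the deposited series table, whose values are identical, so it repeats the reported fit. The filters and the variance trend also leave the difference at -2.57, so only the adjusted p could change there. It did not pass with the fixed block (-2.39), without slide 1 (-2.58), without CD 1 and HFHSD 5 (-2.52, adjusted p = 0.116), or without CD 1 or CD 3, and lay between -2.89 and -2.27 leaving out 1 animal. The cause was not tested. Normexp with percentile scaling moved the median of all probes from -0.024 to -0.17.

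The sign turned for these genes, some of which, as given above, were at or near the background. With normexp and percentile scaling AKR1A1 was 0.055, AKR1B1 0.066, ALDH2 0.19, CYP21A2 -0.048, CYP3A46 -0.098, FMO1 0.23 and the second CYP2A19 probe -0.013. CYP17A1 was 0.16 with normexp and quantile and 0.19 with quantile normalisation. With the fixed block CYP19A1 was -0.29, CYP21A2 -0.67, CYP24A1 -0.064 and EPHX2 0.18, and with the random block CYP19A1 -0.032, CYP21A2 -0.068 and CYP24A1 -0.033. Within slide 2 CYP19A1 was -0.67, CYP21A2 -0.0012, CYP24A1 -0.17 and GSTA4 -0.018. Within slide 3 AKR1A1 was 0.048, AKR1B1 0.14, CYP21A2 -1.42, CYP2C33 1.62, CYP2C49 1.0, CYP4A24 0.19, EPHX2 0.80, MGST3 0.14 and SULT2A1 2.08. Array weights gave CYP21A2 -0.37, and the mean of probes CYP24A1 -0.061 and CYP2A19 0.66. Without slide 1 CYP19A1 was -0.22 and CYP21A2 -0.83. Without CD 1 and HFHSD 5 CYP21A2 was -0.70, CYP2C33 1.11, FMO1 0.085 and SULT2A1 0.93. Leaving out 1 animal gave CYP21A2 -0.32 to 0.66, CYP2C33 -3.48 to 1.27, FMO1 -0.34 to 0.013, SULT2A1 -4.08 to 0.83, CYP19A1 -0.041 to 0.38, CYP24A1 -0.056 to 0.10 and CYP2A19 -0.22 to 0.11. The cause was not tested. No paired analysis was possible because the labels give animals of the diets no shared replicate numbers. The 95% intervals of the members were at least 0.72 wide with a median width of 1.67.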
